A study of Mus musculus with 8 samples.

Results

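The IrxA and IrxB gene clusters were described by the H3K27ac peaks that fall in them in mouse colon cancer organoids with and without Gata6. IrxA holds Irx1, Irx2 and Irx4 and was taken as the stretch of chromosome 13 from 72 to 73.5 Mb. IrxB holds Irx3, Irx5 and Irx6 and was taken as chromosome 8 from 94.2 to 95.3 Mb. Positions are those of mm9, the build named in the submitters' processing notes. A member is any peak of the deposited table that overlaps one of these windows. There were 9 members among 22731 peaks, 8 in IrxA and 1 in IrxB.

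H3K27ac, an acetylated histone residue found at active promoters and enhancers, was measured by CUT&RUN, in which an antibody guides a nuclease that releases the marked DNA for sequencing. The Gata6 knockout organoids carried the genotype Gata6KO_AKP (3 libraries) and the controls the genotype AKP (3 libraries). The labels do not spell out AKP, which is shared by both groups. Both groups also share the label C57Bl6 for recipient mice. The labels give neither how Gata6 was removed nor whether the knockout is 1 clone, and they do not say whether replicates were separate cultures, so the spread between libraries may be technical. An H3K4me3 and an IgG library of control organoids were not analysed here, so no background was subtracted.

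The libraries held 5495414 to 6196455 reads in peaks in the knockout and 5141856 to 7026388 in the control. All 9 members passed the filter on low counts. The 2 windows were picked with the knockout-to-control differences of these data already known. Every difference between the groups below is therefore a description of these libraries, and calls are given without p-values and support nothing further.

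Irx proteins are homeodomain transcription factors of the TALE class, named after the Iroquois complex of Drosophila. In mammals their genes sit in a pair of clusters that arose by duplication, so that Irx1 and Irx3, Irx2 and Irx5, and Irx4 and Irx6 are the matching members. They pattern tissues in the embryo: Irx4 is known for ventricular identity in the heart, Irx3 and Irx5 for limb, heart and neural patterning, Irx1 and Irx2 for digit, lung and kidney development, and Irx6 for retinal bipolar cells. The genes are widely spaced, and long stretches between them hold enhancers shared within a cluster. GATA6, a zinc finger protein of endoderm-derived epithelia such as that of the gut, binds DNA at sites built on the letters GATA.

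In the RefSeq gene table at hand, which describes GRCm38.p6, the order along chromosome 13 is Irx1, Irx2, Irx4, then Ndufs6, a subunit of respiratory complex I, and Mrpl36, a mitochondrial ribosomal protein. Along chromosome 8 it is Fto, Irx3, Crnde, Irx5, Irx6 and Mmp2; Crnde is a long noncoding RNA gene next to Irx5. That assembly is not the build of the peaks, so its coordinates were not laid over them. Peaks are named IrxA-1 to IrxA-8 and IrxB-1 in order along the chromosome and are tied to no single gene. Which members are promoters and which lie between genes was not determined.

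Promoter sequences of the clusters are shown to give the kind of sequence at which these genes start; whether a member covers one of them was not determined. RefSeq's table matched 3 of the 6 genes, Irx2, Irx4 and Irx3. The 250 bases upstream of each start are printed 5′ to 3′ on the gene's own strand (GRCm38.p6; chromosome 13, plus strand, for Irx2 and Irx4 and chromosome 8, minus strand, for Irx3), with each CG dinucleotide in capitals.

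Irx2: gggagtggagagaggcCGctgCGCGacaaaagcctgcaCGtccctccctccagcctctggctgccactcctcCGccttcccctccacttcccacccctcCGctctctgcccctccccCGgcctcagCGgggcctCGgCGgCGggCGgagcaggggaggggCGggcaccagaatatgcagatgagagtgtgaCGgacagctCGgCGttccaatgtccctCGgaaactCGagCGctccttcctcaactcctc

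Irx4: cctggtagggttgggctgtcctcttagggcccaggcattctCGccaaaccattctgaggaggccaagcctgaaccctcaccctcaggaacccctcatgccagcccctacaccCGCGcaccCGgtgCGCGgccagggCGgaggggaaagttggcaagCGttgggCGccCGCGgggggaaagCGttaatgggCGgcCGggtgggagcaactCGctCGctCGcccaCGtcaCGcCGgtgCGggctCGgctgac

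Irx3: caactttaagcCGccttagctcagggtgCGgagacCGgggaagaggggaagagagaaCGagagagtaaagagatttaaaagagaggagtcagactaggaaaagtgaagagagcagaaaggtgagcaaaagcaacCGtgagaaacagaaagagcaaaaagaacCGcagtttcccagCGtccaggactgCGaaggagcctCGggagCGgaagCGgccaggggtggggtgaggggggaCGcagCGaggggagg

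They hold 19 CG dinucleotides in Irx2, 22 in Irx4 and 13 in Irx3, against a median of 6 over 32841 promoters of the same length. Fewer CG dinucleotides were found in 80.3% of promoters than in Irx2, in 85.2% than in Irx4 and in 68.4% than in Irx3, so Irx3 stands less far from the ordinary promoter. Their G and C content is 68.4%, 68.8% and 56.0%, in that order, against a median of 52.4%. The letters GATAA, searched on both strands (TTATC on the other), occur in none of the 3 stretches and in 22.6% of all promoters of this length, which says nothing about binding elsewhere in the clusters.

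H3K27ac at the Irx clusters differed most at 3 peaks, the abutting IrxA-3 and IrxA-4 and the only IrxB peak, IrxB-1. There the knockout level was 2.46 to 4.31 times the control level. Of the 9 members, 4 were called higher in the knockout, 1 was called lower and 4 were not called. Calls are at an adjusted p under 0.05 in edgeR's quasi-likelihood fit, with p adjusted over every peak of the table. Across all peaks tested, 21.8% were called, 11.6% higher and 10.2% lower. Because the windows were picked on this contrast, the counts are not read against those shares. The median log2 fold change was 0.14 over the 9 members and -0.01 over all peaks. The mark was measured in bulk, so acetylation in more cells and more acetylation per cell cannot be told apart.

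IrxA-3 covers 2395 bp of chromosome 13, from 73391131 to 73393525. Its level was 29.6, 33.4 and 43.9 CPM in knockout replicates 1 to 3, against 8.35, 7.60 and 8.88 CPM in control replicates 1 to 3 (CPM, the count scaled to the library's reads in peaks and by TMM factors). The lowest knockout library was 3.33 times the highest control library. In CPM, the knockout libraries spread more than the control libraries, at a higher mean and with replicate 3 the highest. The group values were 35.6 ± 7.43 CPM in the knockout and 8.27 ± 0.645 CPM in the control (SD, n = 3 each). The difference was 4.31-fold, a log2 fold change of 2.10 ± 0.20 (SE), and only 9 of the 22731 peaks had a higher one. The control values rest on 48, 39 and 62 counts, the fewest among the members.

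IrxA-4 starts 6 bp beyond the end of IrxA-3 and is the widest member, 6653 bp from 73393532 to 73400184. It held 74.2, 66.0 and 66.1 CPM in knockout replicates 1 to 3, against 20.9, 23.4 and 23.5 CPM in control replicates 1 to 3. The libraries of each group lay close together and the groups far apart, with the lowest knockout library 2.81 times the highest control library. The log2 fold change was 1.60 ± 0.14 (SE), and 70 peaks of the table had a higher one. Because IrxA-3 and IrxA-4 abut, they can be read as 1 acetylated domain of 9054 bp that the peak set divides. Counted as 1 peak, a choice made after the values were seen, it held 103.8, 99.4 and 110.0 CPM in knockout replicates 1 to 3, against 29.2, 31.0 and 32.4 CPM in control replicates 1 to 3. Its log2 fold change was 1.76 ± 0.12 (SE), and it was called higher.

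The 2 sides of this domain did not hold the same level per kb in every library. The level per kb at IrxA-4, divided by that at IrxA-3, was 0.902, 0.712 and 0.541 in knockout replicates 1 to 3, against 0.900, 1.11 and 0.952 in control replicates 1 to 3. The groups overlapped narrowly, with knockout replicate 1 level with control replicate 1 and the other 2 knockout libraries below all control libraries. No counting error was computed for these ratios. Those of the control rest on only 48, 39 and 62 counts at IrxA-3, so their distance from equality is not read as real.

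IrxB-1 is the single peak of the IrxB window, 3956 bp of chromosome 8 from 94968077 to 94972032. It held 35.7, 42.4 and 44.9 CPM in knockout replicates 1 to 3, against 19.3, 14.0 and 16.6 CPM in control replicates 1 to 3. Each knockout library lay above every control library, the lowest at 1.85 times the highest control library. The means were 41.0 ± 4.77 CPM in the knockout and 16.6 ± 2.64 CPM in the control (SD, n = 3 each), a 2.46-fold difference. The log2 fold change was 1.30 ± 0.17 (SE), and 216 peaks of the table had a higher one.

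**Figure D1:**
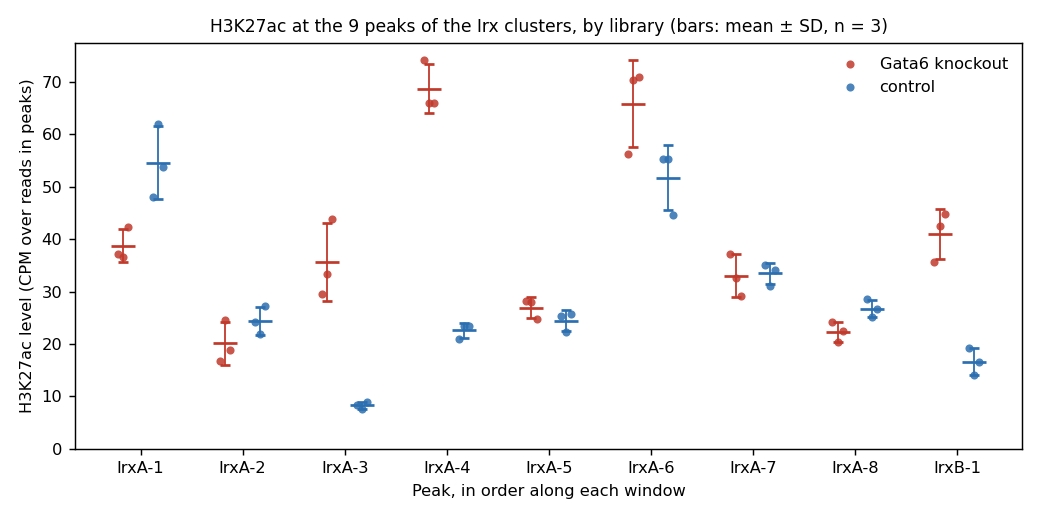
H3K27ac level of each member (vertical axis, CPM over reads in peaks) in the 3 Gata6 knockout libraries (red, left of each pair) and the 3 control libraries (blue); points are libraries and bars the mean ± SD. The groups stand furthest apart at IrxA-3, IrxA-4 and IrxB-1, where every knockout library lies above every control library.

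The other 6 members of IrxA differed by less. IrxA-6, from 73426081 to 73429510, is the most strongly acetylated member per kb in both groups. It held 56.2, 70.4 and 70.9 CPM in knockout replicates 1 to 3, against 55.3, 55.3 and 44.5 CPM in control replicates 1 to 3. Knockout replicate 1 and control replicates 1 and 2 were almost level, and the groups did not overlap by a narrow margin, the lowest knockout library at 1.02 times the highest control library. The log2 fold change was 0.35 ± 0.12 (SE) and was called higher. The call rested on single libraries. It was lost without knockout replicate 2 (log2 fold change 0.30), without knockout replicate 3 (0.30) and without control replicate 3 (0.25).

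IrxA-1, the first member along the window, from 72344587 to 72348838, is the member called lower. Its level was 37.3, 36.6 and 42.3 CPM in knockout replicates 1 to 3, against 48.0, 61.9 and 53.8 CPM in control replicates 1 to 3. All knockout libraries lay below all control libraries. The log2 fold change was -0.49 ± 0.13 (SE). Its neighbour IrxA-2, from 72419566 to 72422016, held 16.7, 24.7 and 18.9 CPM in knockout replicates 1 to 3, against 24.2, 21.8 and 27.2 CPM in control replicates 1 to 3. The groups overlapped there, and the log2 fold change of -0.29 ± 0.19 (SE) was not called.

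The remaining 3 members, none of them called, lie between 73415863 and 73470233. IrxA-5, from 73415863 to 73417966, held 28.2, 27.9 and 24.7 CPM in knockout replicates 1 to 3, against 25.4, 22.2 and 25.8 CPM in control replicates 1 to 3. IrxA-7, from 73458789 to 73462185, held 37.3, 32.6 and 29.2 CPM in knockout replicates 1 to 3, against 35.1, 31.2 and 34.1 CPM in control replicates 1 to 3. The groups overlapped at both. IrxA-8, from 73467899 to 73470233, held 24.2, 20.3 and 22.4 CPM in knockout replicates 1 to 3, against 28.5, 25.1 and 26.6 CPM in control replicates 1 to 3. Its knockout libraries lay below its control libraries without a call. Their log2 fold changes were 0.14 ± 0.17, -0.02 ± 0.15 and -0.26 ± 0.17 (SE), in the order of their positions.

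In all, the groups did not overlap at 6 of the 9 members, 4 with the knockout above and 2 with it below. The same held at 33.8% of all peaks, 17.5% above and 16.2% below, and nothing is read from the comparison since the windows were picked on this contrast. IrxA-4 and IrxA-5, a called and an uncalled member, are separated by 15.7 kb without a peak.

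**Figure D2:**
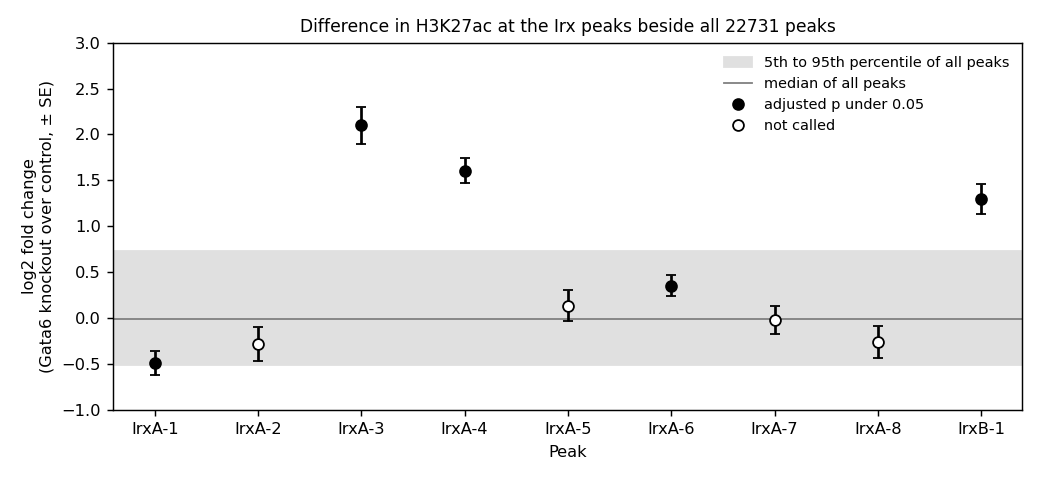
Log2 fold change of each member, Gata6 knockout over control (vertical axis, points with SE), with the 5th to 95th percentile of all peaks in grey (-0.51 to 0.73) and their median as a line. Filled points were called at an adjusted p under 0.05; IrxA-3, IrxA-4 and IrxB-1 lie above the grey band and the other members inside it.

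Levels per kb, which allow peaks of unequal width to be compared, placed the same 3 peaks at the bottom of the control and among the others in the knockout. In the knockout IrxA-3 held 14.9 ± 3.10, IrxB-1 10.4 ± 1.20 and IrxA-4 10.3 ± 0.705 CPM per kb, and in the control they held 3.45 ± 0.269, 4.21 ± 0.668 and 3.39 ± 0.222 CPM per kb (SD, n = 3 each). The median of all peaks was 10.7 CPM per kb in either group. In the knockout, 85.7% of all peaks lay below IrxA-3, 45.0% below IrxB-1 and 44.5% below IrxA-4. In the control, 0.224% lay below IrxA-3, 0.726% below IrxB-1 and 0.202% below IrxA-4. These peaks thus stood at ordinary or high acetylation in the knockout and among the weakest of the table in the control.

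Low control levels and gains go together across the table. Part of this is by construction, since the control level enters both the ranking and the fold change. Of the 227 peaks in the lowest 1% by control CPM per kb, 204, or 89.9%, were called higher and none lower, with a median log2 fold change of 1.33, and 3 of the 227 were the Irx peaks named above. Of the 227 peaks in the lowest 1% by knockout CPM per kb, 151 were called lower and none higher, with a median log2 fold change of -0.69. None of them was an Irx peak. Over all peaks, 11.6% were called higher and 10.2% lower. How the libraries were combined into the shared peak set is not stated, and the part of the peak calling in this pattern was not tested.

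IrxA-6 was the highest member per kb, at 19.2 ± 2.42 CPM per kb in the knockout and 15.1 ± 1.81 CPM per kb in the control (SD, n = 3 each). The 5 members IrxA-1, IrxA-2, IrxA-5, IrxA-7 and IrxA-8 lay between 8.20 and 12.8 CPM per kb in the knockout and between 9.85 and 12.8 CPM per kb in the control. Among the 9 members, IrxA-1 took rank 8 in the knockout and rank 2 in the control. Several neighbours in rank could not be separated by the spread of their libraries. In the knockout the 6 lowest, in the order IrxB-1, IrxA-4, IrxA-7, IrxA-8, IrxA-1 and IrxA-2, each differed from the next by less than the larger SD of the pair, and so did IrxA-3 from IrxA-5. In the control the same held between IrxA-1 and IrxA-5, IrxA-5 and IrxA-8, IrxA-2 and IrxA-7, and IrxA-3 and IrxA-4.

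**Figure D3:**
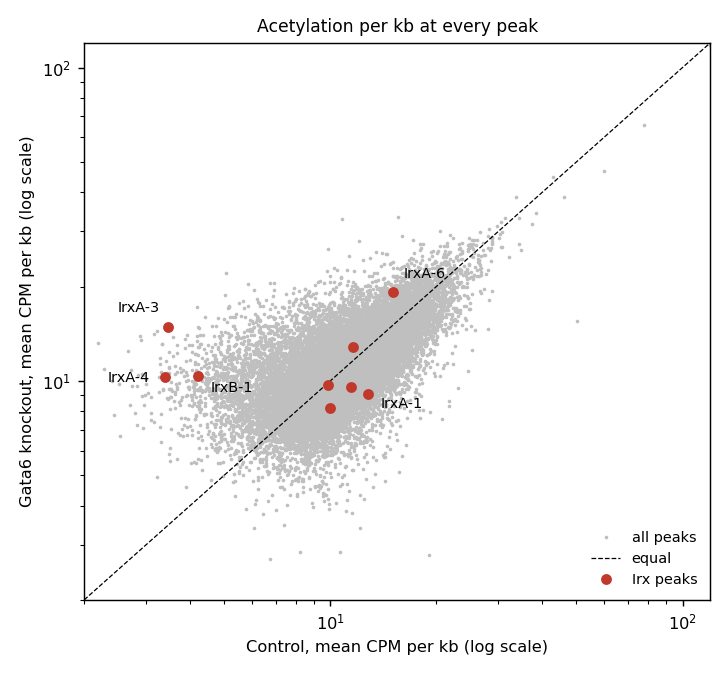
Mean H3K27ac per kb at every peak, in Gata6 knockout (vertical, log scale) against control libraries (horizontal, log scale; 2 of 22731 peaks lie outside the axes), with the 9 Irx peaks in red and equal levels on the dashed line. IrxA-3, IrxA-4 and IrxB-1 lie at the left edge of the cloud, between 3.39 and 4.21 CPM per kb in the control, and above the line.

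Summed over its 8 peaks, IrxA held 304, 312 and 318 CPM in knockout replicates 1 to 3, against 246, 249 and 244 CPM in control replicates 1 to 3. The means differed by 1.26-fold (log2 0.34), and 2 of the peaks carried the difference. IrxA-3 and IrxA-4 together held 104 ± 5.32 CPM in the knockout and 30.9 ± 1.58 CPM in the control (SD, n = 3 each), while the other 6 summed to 207 ± 6.48 CPM in the knockout and 215 ± 2.90 CPM in the control. Those 6 were not uniform. IrxA-1 and IrxA-2 together held 58.8 ± 4.22 CPM in the knockout and 79.0 ± 6.05 CPM in the control. IrxA-5 to IrxA-8 held 148 ± 2.81 CPM in the knockout and 136 ± 7.03 CPM in the control. Within these, IrxA-6 carried the difference, at 65.8 ± 8.31 CPM in the knockout and 51.7 ± 6.22 CPM in the control. Knockout and control means were 26.9 and 24.5 CPM at IrxA-5, 33.0 and 33.5 CPM at IrxA-7, and 22.3 and 26.8 CPM at IrxA-8. The cluster-wide sum depended on where the window ended, with a log2 ratio of 0.10 over the 13 peaks of a window 250 kb wider at each end and 0.57 over the 4 peaks of one 100 kb narrower at each end.

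The division of reads within IrxA needs no scaling between libraries. IrxA-3 and IrxA-4 took 34.2%, 31.9% and 34.5% of the IrxA reads in knockout replicates 1 to 3, against 11.9%, 12.5% and 13.2% in control replicates 1 to 3. The Wilson 95% intervals lay between 29.7% and 36.7% in the knockout libraries and between 10.3% and 14.9% in the control libraries. They treat every count as independent and cover counting error only, and they are too narrow where both mates of a pair were counted. The share was similar among libraries of a group, 33.5 ± 1.45% in the knockout and 12.5 ± 0.678% in the control (SD, n = 3 each).

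**Figure D4:**
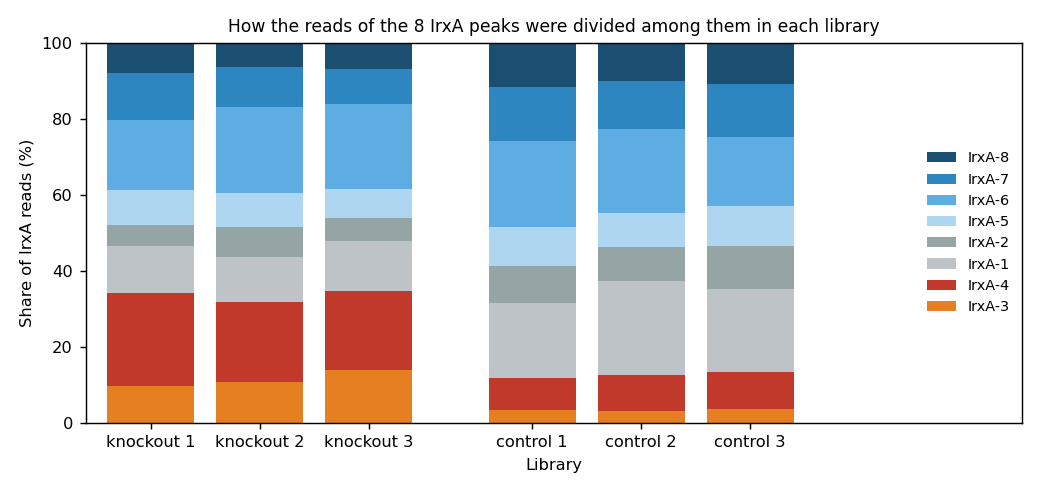
Percentage of the reads of the 8 IrxA peaks that fell in each peak (vertical axis), 1 bar per library, Gata6 knockout on the left and control on the right. IrxA-3 and IrxA-4 (orange and red) take 31.9% to 34.5% in the knockout libraries and 11.9% to 13.2% in the control libraries.

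Most of both windows held no peak of the shared set. Peaks covered 1.80% of the IrxA window and 0.360% of the IrxB window. The whole table held 8.89 peaks per Mb with a median width of 2690 bp, so being mostly without peaks is not particular to these windows. The covered share of the genome was not computed. There were 5.33 peaks per Mb in IrxA, against 6.68 per Mb along chromosome 13, and 0.909 per Mb in IrxB, against 10.4 per Mb along chromosome 8. IrxA-1 and IrxA-2 stood apart from the rest of their cluster: 969 kb without a peak separated IrxA-2 from IrxA-3, and 1302 kb lay before IrxA-1. IrxB-1 had no other peak for 1033 kb before it or 1524 kb after it. The median distance between neighbouring peaks of the table was 9.15 kb, and 537 of 22706 such distances were as long as the shorter side of IrxB-1. The other 6 IrxA members, by contrast, lay within one stretch from 73391131 to 73470233.

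Across the upper limit of the IrxA window the nearest peak on either side was not called. The last member inside, IrxA-8, had a log2 fold change of -0.26, and the first peak beyond the IrxA window, from 73612024 to 73618616, one of -0.19 ± 0.12 (SE, not called). Of the 5 peaks within 250 kb beyond that end, 1 was called lower, from 73633717 to 73640278, with a log2 fold change of -0.46 ± 0.11 (SE). The rest were not called, with -0.38 ± 0.18 at the peak starting at 73625937, 0.03 ± 0.16 at 73620199 and 0.05 ± 0.19 at 73741007 (SE). No further peak lay within 250 kb of the IrxB window.

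**Figure D5:**
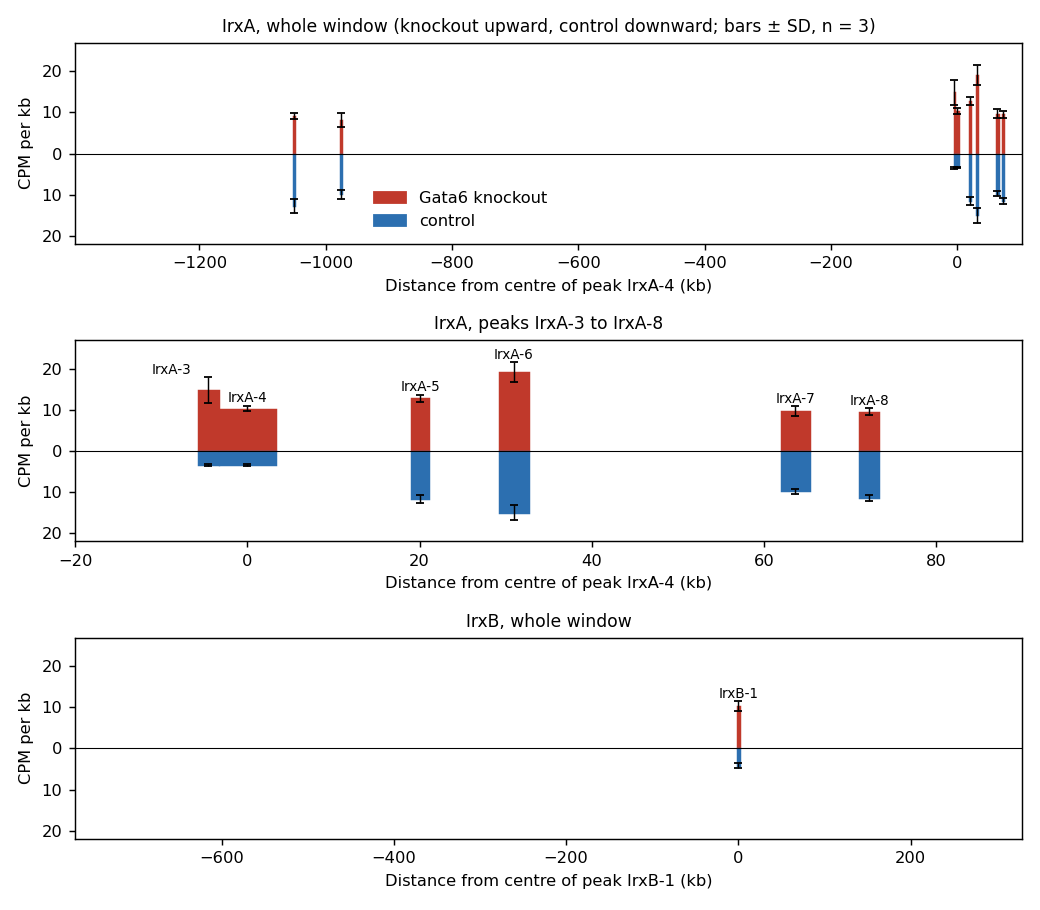
Position and level of the members: horizontal axis, distance in kb from the centre of IrxA-4 (upper and middle panels) or IrxB-1 (lower panel), and vertical axis, mean CPM per kb with SD, Gata6 knockout upward in red and control downward in blue; bar width is peak width. The red bars of IrxA-3, IrxA-4 and IrxB-1 exceed the blue ones, at 14.9, 10.3 and 10.4 CPM per kb in the knockout against 3.45, 3.39 and 4.21 CPM per kb in the control, and wide stretches hold no peak.

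Elsewhere in the table, the peaks whose log2 level followed IrxA-4 most closely over the 6 libraries were 1 on chromosome 8 (96646411 to 96649580) and 2 on chromosome 4 (53327719 to 53331348 and 82743425 to 82746436), the lowest at r = 0.9988. For IrxB-1 they were found on chromosomes 11 (113151932 to 113155411), 16 (21830434 to 21833377) and 1 (170310132 to 170312042), the lowest at r = 0.9970. In the order named, log2 fold changes were 1.36, 1.90 and 1.53 in the IrxA-4 list and 0.62, 0.65 and 1.42 in the IrxB-1 list. Many other peaks scored nearly as high, so those named are not set apart from them. IrxA-4 stood for its cluster because IrxA-3, with the larger difference, lay below the median level of all peaks. Likeness is Pearson's r, given as a description over 6 libraries that fall into the knockout and control groups. A peak clearly higher in the knockout libraries therefore scores high, whatever the size of its difference.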

How the data were processed

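H3K27ac CUT&RUN was sequenced in pairs on 3 Gata6 knockout and 3 control libraries of AKP organoids. The deposited table holds raw counts per peak, not normalized, over 1 peak set shared by the libraries, and all its columns were used. Bowtie, Picard, SAMtools, SEACR and bedtools and the build mm9 are named in the submitters' processing notes, without versions or roles; the merging of peaks and the counting program are not given in the sources used. Between 82.8% and 88.9% of the counts of a library were even, as when both mates are counted, which makes the counts less precise than they look.

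The fit used edgeR 4.0.16 (R 4.3.3) on all 22731 peaks, with filterByExpr, TMM, group as the only term, and Benjamini-Hochberg adjustment; SEs come from the F statistic. CPM is over reads in peaks, so a change common to all peaks is not seen. The procedure was also run on simulated counts, drawn independently and with the same variability at every peak. They lacked the excess of even counts, and their outcome is not given here. Chi-square values on halved counts were 1.53 to 1.84 per degree of freedom within groups and 3.97 to 4.85 between them, so no library looked like a copy of another. Per-library values were to be printed for the called members and, per cluster, the 8 highest by level and by absolute log2 fold change, which takes in every member; the most similar peaks were the 3 with the highest Pearson r. The windows, members and lists were chosen with earlier results of these data known. The planned check of tissue markers, of the Gata6 gene itself and of other TALE genes was not run, since no mm9 annotation was used here. DESeq2 1.42.0 and other settings were alternatives. Promoter sequences are RefSeq's, GRCm38.p6.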

Additional observations from a re-analysis of the deposited data

How the results depend on the processing

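The other settings were DESeq2, trended offsets (loess span 0.3), scaling by total counts, by upper quartiles or by DESeq2's factors, no filter, a minimum of 50 counts in 3 libraries, a replicate block, halved counts, leaving out chromosome 5 and leaving out each library; window limits, a threshold of 0.01 and the merging of the abutting peaks (added after the data were seen) applied to the counts only, and window limits also to the sums. Of 144 log2 fold changes of single members, 138 kept direction and call. IrxA-7, never called, changed sign with trended offsets (0.0029) and ranged from -0.12 to 0.063 with a library left out. IrxA-6 lost its call without knockout replicate 2, knockout replicate 3 or control replicate 3, with a range of 0.25 to 0.45 over all libraries left out; the cause was not tested. With a library left out, IrxA-3 ranged from 1.92 to 2.22, IrxA-4 from 1.55 to 1.64 and IrxB-1 from 1.20 to 1.42, and IrxA had 2 to 3 peaks called higher. IrxA-1 then ranged from -0.57 to -0.39 and stayed called lower, closest to losing its call without control replicate 2. Windows widened by 250 kb gave 2 IrxA peaks called lower in place of 1 and a summed log2 ratio of 0.10, and windows narrowed by 100 kb gave 0.57, by construction from other peaks; the main ratio was 0.34. Same-numbered libraries deviated together at r = 0.0059 to 0.067 across peaks, and libraries of unlike number at -0.049 to 0.040. Knockout replicate 1 correlated more with control replicate 2 (0.040) than with control replicate 1 (0.0075). Deviations were taken from the mean of each group of 3, which ties these values together. They cannot decide whether replicates were paired, and the labels show no pairing. With the replicate number as a block, 3 IrxA peaks were called higher and 1 lower, and IrxB-1 was called higher, as without it; over all peaks, 2704 were called higher and 2409 lower with the block, and 2640 and 2320 without it. A threshold of 0.01 left 2 IrxA peaks called higher, since IrxA-6 lost its call. Merging the abutting peaks also gave 2, since IrxA-3 and IrxA-4 then counted as 1 called peak. Counts of 39 to 62 limit IrxA-3 in the control.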
